A study of Mus musculus with 6 samples.

Results

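Ovulated oocytes whose growth had been completed without KDM1A were compared with control ovulated oocytes, across every gene that the authors had put to a test. These were 11651 of 47728 gene rows. KDM1A, also called LSD1, is a histone demethylase encoded by Kdm1a. The Kdm1a mutant group consisted of 3 libraries (replicates 1 to 3) made from litters of eggs of females with floxed Kdm1a alleles (LSD1 FL/FL by the labels, one floxed and one deleted allele by the methods) that carried ZP3Cre, a Cre recombinase under the Zp3 promoter, which is active in oocytes from the start of their growth. The control libraries came from an earlier study and are not among the 6 samples of the series. The design text calls them wild type and the methods Kdm1a fl/fl, and the age of the females is not given in the sources used here for either group. The origin of the libraries and the genotype thus cannot be told apart in the values below. The other 3 libraries of the series, from maternal mutant 2C embryos, were not analysed here.

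An oocyte transcribes and stores RNA while it grows, and becomes almost silent before it is ovulated. The RNA of an ovulated egg is therefore what growth has left behind, minus what has since been degraded during maturation. KDM1A removes methyl groups from lysine 4 of histone H3, a mark of active promoters and enhancers, and works with RCOR proteins and histone deacetylases in the CoREST complex, which is known for holding neuronal genes silent in other cells. A poly(A) tail lengthens or shortens on many stored messages during maturation, and the libraries here were primed with both random hexamers and poly-dT.

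The table used gives 1 mean per group and gene, in normalized counts that are not divided by gene length, so levels are compared only within a gene. It holds no value per library. No SD, n or test can be attached to any value, it cannot be seen whether the libraries of the groups overlap, and the depth is unknown. The quantity reported is the log2 ratio of the mutant over the control mean, with 1 added to each mean. A gene is called higher when this ratio was at least 2 (a 4-fold difference) and its mutant mean at least 50, and lower when it was at most -2 and its control mean at least 50. These are differences between 2 means, not results of a test. In bulk samples of this kind, fewer cells of a type and less RNA per cell cannot be told apart.

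By this measure 458 genes, 3.93% of those tested, were higher in Kdm1a mutant oocytes, and 303 genes, 2.60%, were lower. The bulk of the transcriptome lay near equality. The median log2 ratio was -0.01, its quartiles were -0.58 and 0.62, and 8177 genes (70.2%) lay within a 2-fold difference. Across genes, which are not independent replicates, the means of the groups had a Spearman correlation of 0.902. At a 2-fold bound 1336 genes (11.5%) were higher and 1100 (9.44%) lower, and at an 8-fold bound 190 (1.63%) were higher and 109 (0.936%) lower. The genes called higher had a median mean of 138 in mutant oocytes and 17.5 in control oocytes, so most were present at a low level in the controls too. The genes called lower had a median mean of 19.99 in mutant oocytes and 157 in control oocytes. Low genes differed more between the groups than abundant ones: over 10 equal bins by mean level the interquartile range of the log2 ratio was 2.27 in the lowest and 0.71 in the most abundant bin, which held 3 higher and 6 lower genes of 1165. The minimum mean of 50 keeps most genes of the lowest bin from being called.

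The targeted gene was lower. Kdm1a (chromosome 4 of GRCm38, 136550540 to 136602723, minus strand) had a mean of 6.37 in mutant oocytes and 921 in control oocytes, a log2 ratio of -6.97. Genes that define oocytes were present in both groups, and 0 of 36 tested were past the 4-fold bound in either direction. Of all tested genes 3.93% were higher and 2.60% lower, and in the most abundant of 10 bins by mean level 0.26% and 0.52%. Many of the 36 were abundant, so a count of 0 in a list of this size is close to those shares. Their log2 ratios had a median of 0.12 and ran from -1.06 for Pou5f1, a pluripotency factor, to 1.65 for Zp3, which encodes a protein of the zona pellucida and whose promoter drives the Cre. Gdf9, a growth factor the oocyte secretes to its follicle, had means of 30876 in mutant and 14528 in control oocytes. Bmp15, its partner, had 10830 in mutant and 16307 in control oocytes, so the members of this pair differed in direction within a 2-fold or slightly larger difference. Npm2, a histone chaperone of the egg, was at 13033 in mutant and 12807 in control oocytes.

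Markers of the cells that surround or could accompany an egg were mostly too low to be tested. Of 23 rows of cumulus and granulosa cell markers 4 were tested and 10 were listed at 0 in both groups, and the list summed to 4477 in mutant and 1754 in control oocytes. Nearly all of the mutant sum was Cyp19a1, the aromatase, at 4237 in mutant and 957 in control oocytes. Another member, the nuclear receptor Nr5a2, was lower, at 142 in mutant and 731 in control oocytes, so the list did not move one way. Blood cell markers summed to 88.3 in mutant and 165 in control oocytes with 1 of 13 rows tested, oviduct epithelium markers to 3440 in mutant and 4067 in control oocytes with 5 of 16 rows tested, and sperm and spermatid markers to 31.2 in mutant and 26.4 in control oocytes with 0 of 17 rows tested. Most of the oviduct sum was Cdh1, at 3119 in mutant and 3513 in control oocytes. Of the 5 tested oviduct markers 0 were higher and 2 lower. These were Pax2, at 1.27 in mutant and 207 in control oocytes, and Cftr, at 16.1 in mutant and 77.1 in control oocytes. Cdh1, Epcam and Sec14l3 had log2 ratios of -0.17, 0.38 and 0.01. The part of other cells in the results below was not tested.

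Sequence around the starts of 4 genes is shown first, because the share of genes called higher varied with CpG content at the transcript start. CpG is the dinucleotide in which mouse DNA is methylated, and promoters rich in it are typical of widely used genes, whereas promoters poor in it are typical of tissue-restricted genes. The windows are RefSeq's, on GRCm38.p6, from 250 bases before to 50 bases after the annotated start, written 5′ to 3′ on the strand of the gene with each CG in capitals. They were chosen after their values were seen, as CpG-poor genes that were higher and CpG-rich genes that were lower. Kera and Ucma, which encode the matrix proteins keratocan of the cornea and a factor of cartilage, were higher. Kdm1a itself and the kinase gene Stk39 were lower.
Kera, chr10:97606955-97607254, plus strand: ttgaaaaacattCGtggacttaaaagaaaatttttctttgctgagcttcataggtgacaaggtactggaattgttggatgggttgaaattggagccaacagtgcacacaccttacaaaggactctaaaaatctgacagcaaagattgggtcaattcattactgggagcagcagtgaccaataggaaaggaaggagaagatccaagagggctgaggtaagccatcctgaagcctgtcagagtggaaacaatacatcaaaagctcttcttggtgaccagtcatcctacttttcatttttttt
Ucma, chr2:4975872-4976171, plus strand: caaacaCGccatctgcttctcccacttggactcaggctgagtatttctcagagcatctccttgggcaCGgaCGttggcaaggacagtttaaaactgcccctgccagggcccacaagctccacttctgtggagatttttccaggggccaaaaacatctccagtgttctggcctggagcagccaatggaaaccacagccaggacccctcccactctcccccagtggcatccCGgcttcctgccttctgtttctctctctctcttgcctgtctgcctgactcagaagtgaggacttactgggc
Kdm1a, chr4:136602674-136602973, minus strand: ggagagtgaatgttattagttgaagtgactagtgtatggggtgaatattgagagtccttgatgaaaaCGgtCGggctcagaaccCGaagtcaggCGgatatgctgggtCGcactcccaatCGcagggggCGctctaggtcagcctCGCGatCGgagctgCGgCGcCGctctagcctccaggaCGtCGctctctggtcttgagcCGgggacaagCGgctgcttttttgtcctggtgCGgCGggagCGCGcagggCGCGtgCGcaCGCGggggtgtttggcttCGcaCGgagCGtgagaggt
Stk39, chr2:68471932-68472231, minus strand: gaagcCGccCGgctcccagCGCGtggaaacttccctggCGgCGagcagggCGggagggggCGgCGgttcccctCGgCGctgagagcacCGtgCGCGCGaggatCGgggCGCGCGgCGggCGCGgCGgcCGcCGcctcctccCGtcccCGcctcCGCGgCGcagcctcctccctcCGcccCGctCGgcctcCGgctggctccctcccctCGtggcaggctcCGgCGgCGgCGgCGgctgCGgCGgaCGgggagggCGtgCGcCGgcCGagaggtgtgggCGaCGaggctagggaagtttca
The Kera window holds 1 CpG, a ratio of observed over expected CpG of 0.0809, and the Ucma window 4, a ratio of 0.177. The Kdm1a window holds 29 (1.08) and the Stk39 window 49 (1.02). The median ratio over all 27025 promoter windows of the table was 0.389. These 4 windows illustrate the extremes and support nothing by themselves. Kdm1a is the gene targeted by the Cre, so its value does not illustrate a relation to CpG content. No such relation is claimed for lower genes, whose shares are given below.

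Over all genes the relation was graded. The ratio was computed over the first 300 bases of the annotated transcript for 10245 protein-coding genes, because promoter windows were matched for only 72.2% of tested genes, under the 80% needed for a comparison of sets. The share of genes called higher in mutant oocytes was 8.33% of the 432 genes with a ratio under 0.2, 7.83% of 1034 genes from 0.2 to 0.4, 5.66% of 1608 genes from 0.4 to 0.6, 3.90% of 2745 genes from 0.6 to 0.8, 2.64% of 3067 genes from 0.8 to 1 and 1.91% of 1359 genes at 1 or more. The share called lower stayed between 2.37% and 3.47% in these bins. CpG-poor genes also had lower levels, with a median mean of 74.2 in mutant and 54.8 in control oocytes in the first bin against 276 in mutant and 308 in control oocytes in the last. Among genes with a mean of at least 200 in their higher group the share called higher ran from 10.1% in the first bin to 1.39% in the last, and among those with 50 to 200 from 16.4% to 4.55%. Since a gene can enter these strata through the group in which it is high, they do not separate CpG content from level. In this last stratum the share called lower was also largest in the first bin, at 9.02%, against 5.32% to 7.14% in the others. Of the 422 protein-coding genes called higher, 27.7% had a ratio under 0.4, against 15.1% of the 271 called lower and 13.7% of the 9557 called neither. This measure was chosen after the data had been seen.

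**Figure D1:**
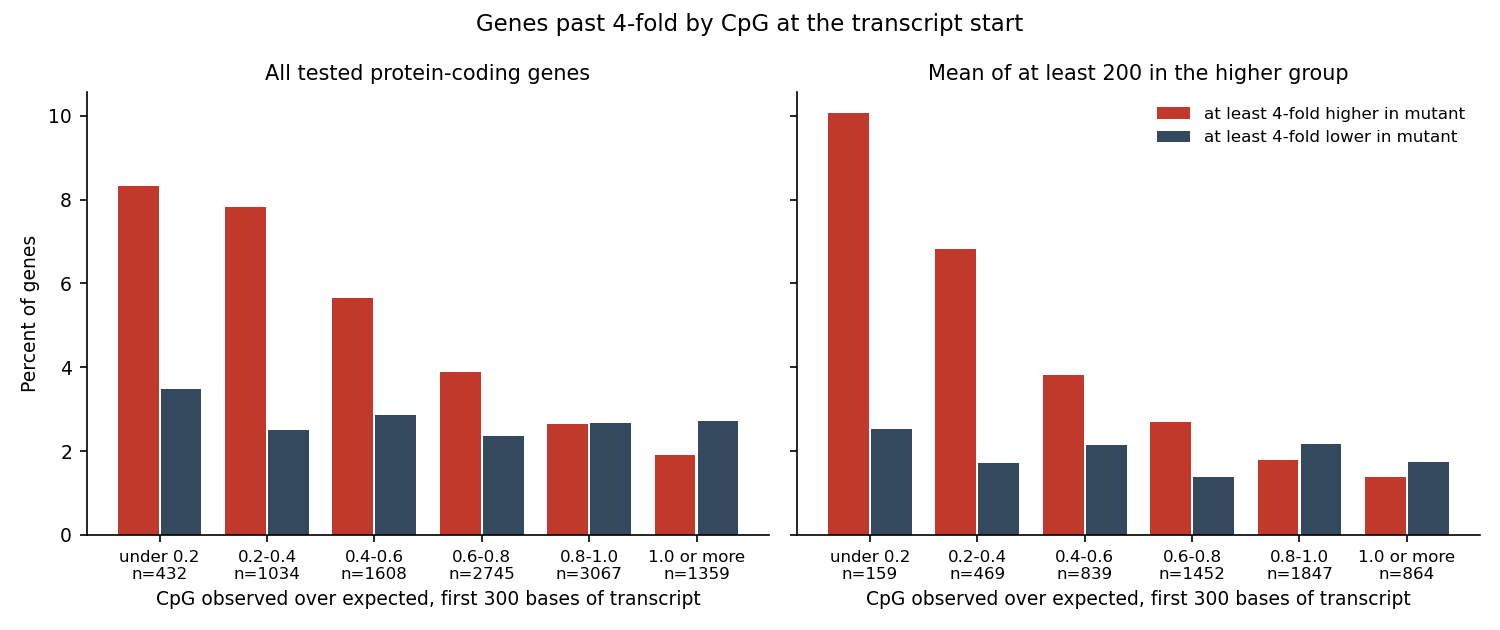
Percent of protein-coding genes at least 4-fold higher (red) or lower (dark blue) in Kdm1a mutant than in control oocytes, by the ratio of observed over expected CpG in the first 300 bases of the transcript, for all tested genes (left) and for those whose higher mean was at least 200 (right), with the number of genes under each bin. The red bars go down from 8.33% to 1.91% on the left and from 10.1% to 1.39% on the right, and the dark bars stay between 2.37% and 3.47% on the left.

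The single genes with the largest ratios encode proteins of many kinds, few of them known for a part in the oocyte. Among 30 genes chosen by the size of the ratio whose higher mean was at least 200, Mt1 came first. It encodes metallothionein 1, which binds metal ions such as zinc, and its mean was 2749 in mutant and 0.975 in control oocytes. Fbxw10, an F-box gene on chromosome 11, had 584 in mutant and 11.8 in control oocytes. Specc1, a cytospin gene on the same chromosome, had 711 in mutant and 16.7 in control oocytes. Fgl1, which encodes a secreted fibrinogen-like protein made by liver, had 463 in mutant and 10.9 in control oocytes, a log2 ratio of 5.28.

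The next genes by size of the ratio had log2 ratios from 4.54 to 5.06. Gab1, an adaptor of receptor tyrosine kinases that is imprinted in placenta, had 1074 in mutant and 31.3 in control oocytes. Cyp4v3, a fatty acid hydroxylase, had 681 in mutant and 22.4 in control oocytes, and Actg2, the smooth muscle gamma actin, 534 in mutant and 17.4 in control oocytes. Kera was at 322 in mutant and 11.8 in control oocytes. Ly96, the MD-2 protein that binds endotoxin with the receptor TLR4, had 558 in mutant and 22.2 in control oocytes. Cpn1, a carboxypeptidase of blood plasma, had 393 in mutant and 15.9 in control oocytes. The remaining higher genes of the 30, Btn1a1, Tceal8, Ucma, Ltbp4 and Stx11, had log2 ratios between 5.78 and 9.37.

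The genes at the lower end likewise encode proteins of several kinds. Pax2, a paired-box factor of kidney and Müllerian duct listed among the oviduct markers above, was at 1.27 in mutant and 207 in control oocytes. Gli3, a zinc finger factor of the Hedgehog pathway, had means of 37.4 in mutant and 1538 in control oocytes, a log2 ratio of -5.33. Smoc2, a secreted calcium-binding matrix protein, had 6.88 in mutant and 326 in control oocytes. Kazn, a gene of cell junctions, was at 1.56 in mutant and 210 in control oocytes.

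Stc2, which encodes the secreted glycoprotein stanniocalcin 2, had 28.5 in mutant and 627 in control oocytes, and Tshz2, a teashirt zinc finger factor, 12.4 in mutant and 258 in control oocytes. Ampd2, an AMP deaminase, had 12.7 in mutant and 280 in control oocytes. Zfp956 and Arfgap1, an activator of the Golgi GTPase ARF1, had log2 ratios of -4.42 and -4.33. Lef1 and Ece1 had log2 ratios of -6.98 and -6.93, and Stk39, Plxdc2 and Ust were listed at 0 in mutant oocytes, with control means of 599, 586 and 239.

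**Figure D2:**
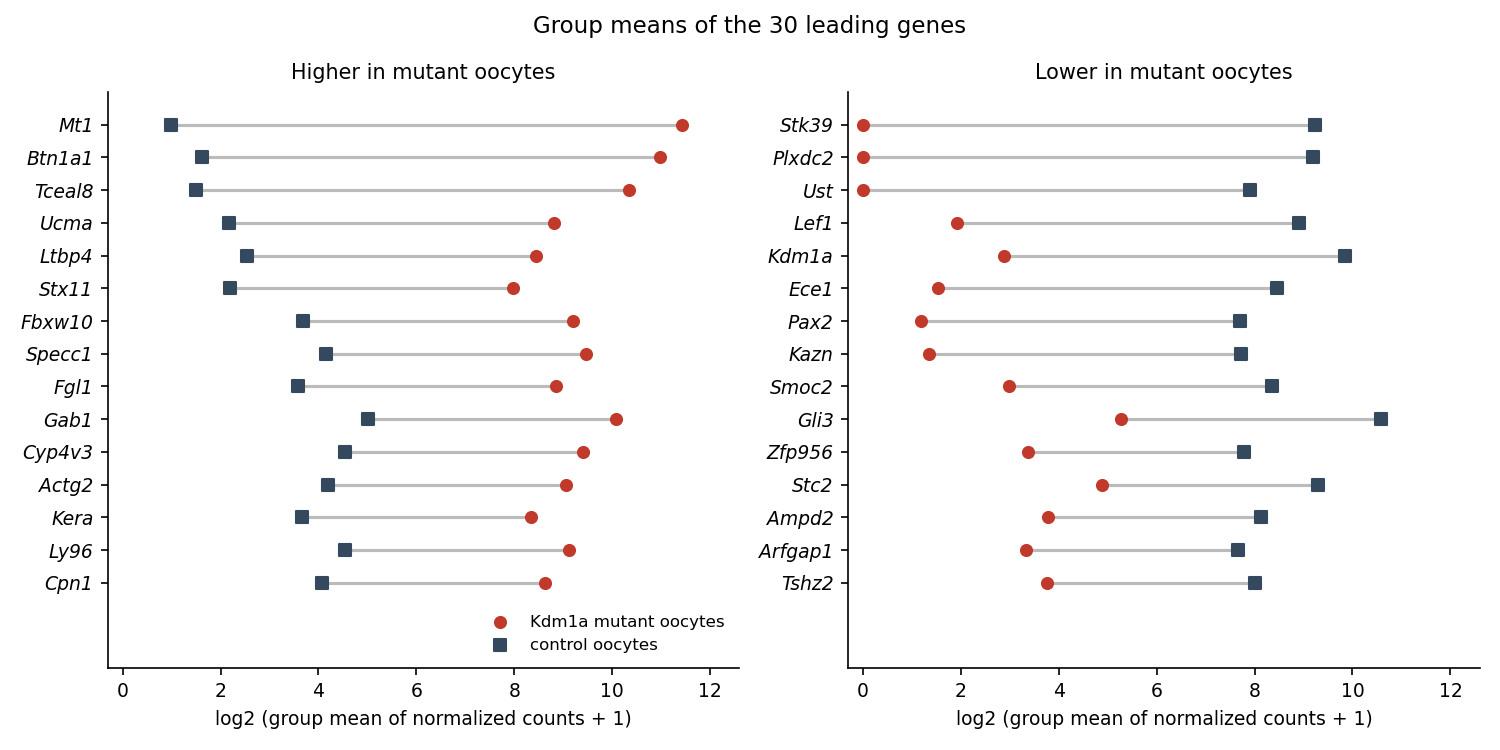
Group means, on an axis of log2 (normalized counts + 1), of the 15 genes with the largest log2 ratio (left panel) and the 15 with the smallest (right panel) among tested genes whose higher mean was at least 200; red circles are Kdm1a mutant and dark squares control oocytes, and each grey line joins the means of 1 gene. Among the higher genes Mt1 has the longest line (log2 ratio 10.44), and 3 of the lower genes are listed at 0 in mutant oocytes.

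Some genes were listed at exactly 0 in one group. In control oocytes 8 genes were listed at 0 with a mutant mean of at least 50, among them Cyp2ab1 at 161, the tight junction gene Cldn6 at 126, Mst1, a hepatocyte growth factor-like ligand, at 125, Nell2 at 119, and Grhl3, a grainyhead factor of epidermis, at 92.4. In mutant oocytes 13 genes were listed at 0 with a control mean of at least 50. Beside the 3 above they include Ly6e at 193, Cdk5r2, an activator of the neuronal kinase CDK5, at 197, Mtx3 at 157, the corneal keratin Krt12 at 122, and Bcor, a corepressor of a Polycomb complex, at 71.0. No fold is given for these genes.

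Mt1 stood apart from the other genes of metal handling. Of 11 metal genes tested (Mt1, transporters of zinc and the factor Mtf1) it was the only one past the 4-fold bound. It was also the only metallothionein among them. The other 10 had log2 ratios between -1.28, for Slc39a9, of the other family of zinc transporters, and 0.76, for the zinc transporter Slc30a7. Mtf1, the factor that senses zinc and binds metal response elements in metallothionein promoters, had means of 1677 in mutant and 2785 in control oocytes, a log2 ratio of -0.73. The core of such elements, TGCACNC or TGCGCNC, was searched on both strands, and the window of Mt1 is shown with its 3 matches in capitals.
Mt1, chr8:94178839-94179138, plus strand: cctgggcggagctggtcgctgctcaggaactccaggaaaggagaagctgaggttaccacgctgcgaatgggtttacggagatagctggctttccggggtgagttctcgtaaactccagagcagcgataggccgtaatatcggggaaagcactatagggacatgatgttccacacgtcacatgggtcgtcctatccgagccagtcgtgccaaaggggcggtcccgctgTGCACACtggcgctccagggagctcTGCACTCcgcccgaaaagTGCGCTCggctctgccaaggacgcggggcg
Matches of this core occurred in 25.6% of all 27025 promoter windows, among them the Kdm1a window with 3, the Kera window with 1 and the Stk39 window with 1. A match is a string of letters and not a measured binding site.

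Genes were next read by class. In all, 4267 tested rows fell in at least 1 of the classes with names by function or family, and 71 classes had at least 10 tested members. The classes are given by role, with counts beside the 3.93% higher and 2.60% lower of all tested genes, and no test was made of any class. Calls also varied with level. In bin 3 of 10 by mean level 10.5% of genes were higher and 5.84% lower, and in the most abundant bin 0.26% and 0.52%. The classes were not matched for level, so their shares do not separate role from level. Classes and roles also share members, so the same gene can add to several of the shares below. Genes of the cell surface and secreted proteins were past the bound more often than all genes in both directions. Of 629 tested, 52 were higher (8.27%) and 30 lower (4.77%). Genes of transcription were lower more often than all genes, with 21 of 447 higher (4.70%) and 22 lower (4.92%). Signalling genes had 31 of 747 higher (4.15%) and 30 lower (4.02%). Genes of the cell cycle had 7 of 322 higher (2.17%) and 4 lower (1.24%), and those of RNA processing and storage 4 of 299 higher (1.34%) and 8 lower (2.68%).

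**Figure D3:**
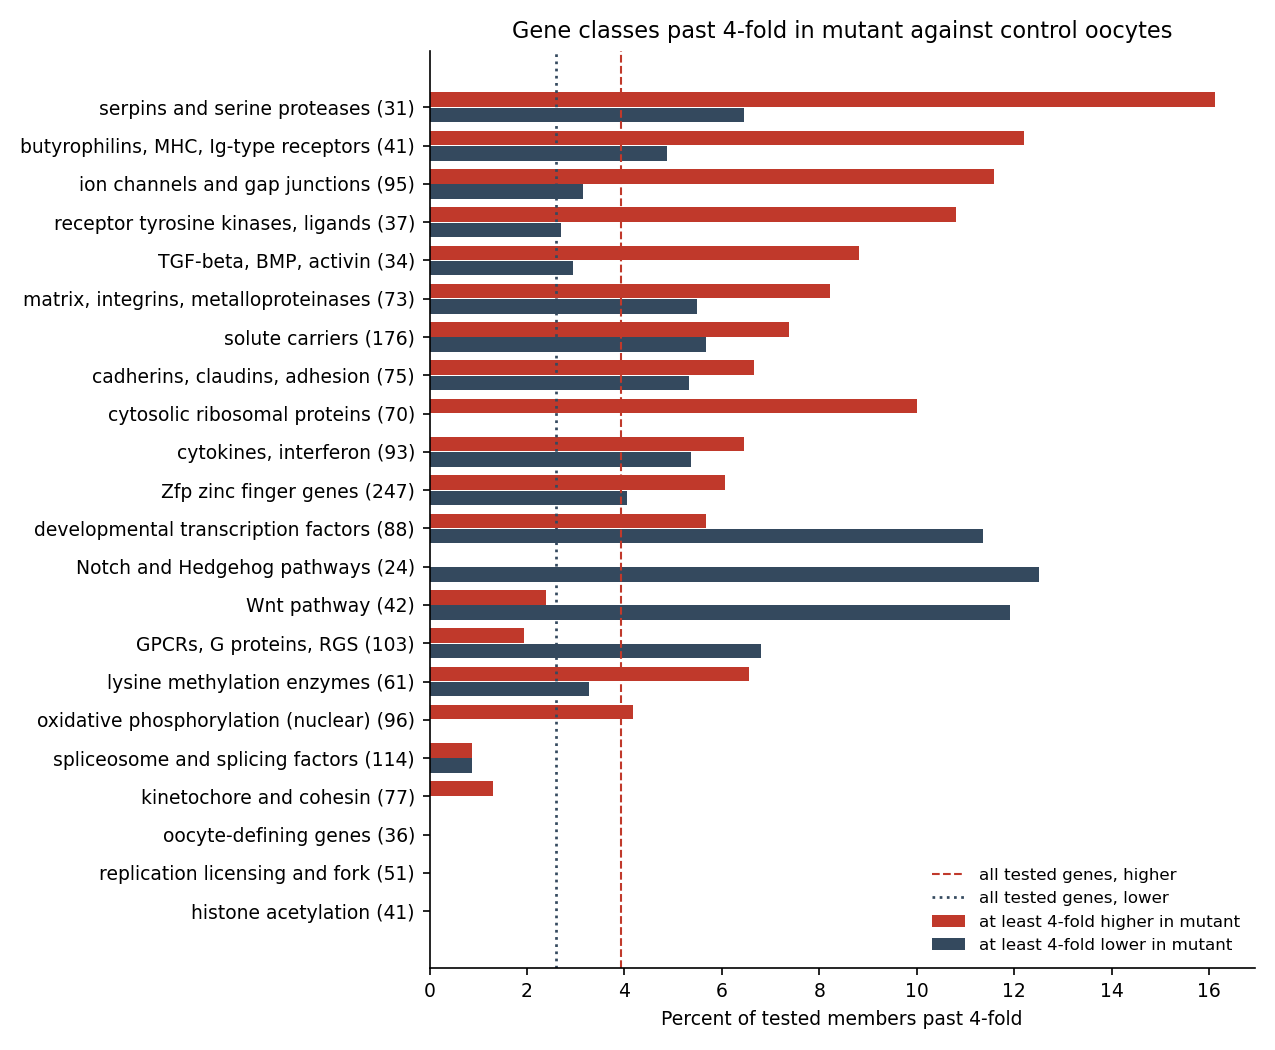
Percent of the tested members of 22 gene classes (number of members in parentheses) that were at least 4-fold higher (red) or lower (dark blue) in Kdm1a mutant than in control oocytes, with the shares over all tested genes as dashed and dotted lines. Serpins and proteases reach 16.1% higher, Notch and Hedgehog genes 12.5% lower, and oocyte-defining, replication and histone acetylation genes have none in either direction.

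Proteases and their inhibitors had the largest share of higher genes among classes of at least 10 members, 5 of 31 (16.1%), with 2 lower and a median log2 ratio of 0.79. Serpinb8, an intracellular inhibitor of furin-like proteases, had 385 in mutant and 44.3 in control oocytes. Wfdc3, of the whey acidic protein family, had 253 in mutant and 52.1 in control oocytes, and prothrombin, F2, 83.5 in mutant and 17.5 in control oocytes. Serpine2, an inhibitor of plasminogen activators and thrombin, went the other way at 555 in mutant and 2531 in control oocytes.

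Channels are the molecules that set the electrical state of a cell. Of 95 genes of ion channels and gap junctions 11 were higher (11.6%) and 3 lower. Tmc7 had 1144 in mutant and 190 in control oocytes, Cacng7, a regulatory subunit of calcium channels and glutamate receptors, 669 in mutant and 130 in control oocytes, Gabrp, a GABA receptor subunit, 289 in mutant and 56.7 in control oocytes, and Chrna5, a nicotinic acetylcholine receptor subunit, 242 in mutant and 25.5 in control oocytes. Cacna1h, the pore of the T-type calcium channel Cav3.2 that carries calcium into mouse eggs, was lower, at 167 in mutant and 856 in control oocytes. Also lower were Kcng4, at 18.3 in mutant and 128 in control oocytes, and the GABA receptor subunit Gabrq, at 6.18 in mutant and 77.5 in control oocytes. Subunits of GABA receptors thus lay on both sides.

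Solute carriers were past the bound in both directions, 13 of 176 higher (7.39%) and 10 lower (5.68%). Slc26a5, which encodes the hair cell motor prestin, had 858 in mutant and 91.3 in control oocytes, and Slc41a2, a magnesium transporter, 485 in mutant and 109 in control oocytes. Slc44a3, of the choline transporter-like family, and Slco1a5, an organic anion transporter, had log2 ratios of 2.98 and 3.09. On the lower side were the potassium-chloride cotransporter Slc12a7 with 82.6 in mutant and 494 in control oocytes, the anion exchanger Slc4a2 with 46.0 in mutant and 253 in control oocytes, and the amino acid transporter Slc7a5 with 52.2 in mutant and 246 in control oocytes.

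Of 41 genes of butyrophilins, MHC and immunoglobulin-type receptors 5 were higher (12.2%) and 2 lower. Beside Btn1a1 the higher ones were Cd4, the coreceptor of helper T cells, with 899 in mutant and 66.2 in control oocytes, H2-M5 with 216 in mutant and 50.5 in control oocytes, H2-K1 with 194 in mutant and 29.2 in control oocytes, and H2-Aa with 128 in mutant and 7.44 in control oocytes. H2-K1 and H2-M5 are class I genes of a family with close copies, which differ between mouse strains, and reads shared between copies were weighted down by the authors. Their values are uncertain for that reason.

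Matrix genes had 6 of 73 higher (8.22%) and 4 lower, and adhesion genes 5 of 75 higher (6.67%) and 4 lower. Higher were Itgav, the integrin alpha V chain, at 196 in mutant and 24.2 in control oocytes, and 4 claudins of tight junctions, among them Cldn15 with 494 in mutant and 46.2 in control oocytes and Cldn9 with 393 in mutant and 90.9 in control oocytes. Lower were the metalloproteinase Adam12 at 32.0 in mutant and 195 in control oocytes, and the adhesion molecule Cadm1 at 117 in mutant and 685 in control oocytes.

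Ligands and receptors are given by pathway, and no difference between pathways was tested. Receptor tyrosine kinases and their ligands had 4 of 37 higher (10.8%) and 1 lower. Erbb3 had 170 in mutant and 20.1 in control oocytes, Erbb4 97.6 in mutant and 23.3 in control oocytes, Hgf, the ligand of MET, 119 in mutant and 19.2 in control oocytes, and Angpt1, the ligand of TIE2, 99.98 in mutant and 4.66 in control oocytes. Flt1, a VEGF receptor, was lower, at 31.5 in mutant and 277 in control oocytes.

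In the TGF-beta, BMP and activin pathway 3 of 34 were higher (8.82%) and 1 lower, while the median was -0.19 and 14 were above 0. The ligand gene Gdf11 had 141 in mutant and 24.7 in control oocytes, and Id2, an inhibitor of helix-loop-helix factors and a BMP target, 89.0 in mutant and 2.28 in control oocytes. Bmp7 was at 0.627 in mutant and 122 in control oocytes, the only lower gene of the pathway.

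Wnt genes leaned to the lower side, with 1 of 42 higher and 5 lower (11.9%), 32 of 42 at a log2 ratio of 0 or below, and a median of -0.50. The receptor Fzd7 had 18.2 in mutant and 214 in control oocytes, and the casein kinase Csnk1g2 113 in mutant and 523 in control oocytes. The nuclear partners of beta-catenin Lef1 and Tcf7l2 had log2 ratios of -6.98 and -4.08, Tcf7l2 with 9.87 in mutant and 182 in control oocytes. Dkk4, a secreted Wnt inhibitor, was the 1 higher gene, at 65.8 in mutant and 7.13 in control oocytes.

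Notch and Hedgehog genes had 0 of 24 higher and 3 lower (12.5%), with a median of -0.42. The lower genes were Gli3, its relative Gli2 with 3.71 in mutant and 74.6 in control oocytes, and Hey2, a target of Notch, with 16.98 in mutant and 102 in control oocytes. Receptors coupled to G proteins, with the G proteins and their regulators, had 2 of 103 higher and 7 lower (6.80%). Gnai1, an inhibitory alpha subunit, had 429 in mutant and 1798 in control oocytes. The sphingosine-1-phosphate receptor S1pr3 had 31.6 in mutant and 375 in control oocytes, and the adenylyl cyclase Adcy9 40.3 in mutant and 188 in control oocytes. Cyclic AMP made by adenylyl cyclase holds the mouse oocyte in meiotic arrest.

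Cytokine, chemokine and interferon genes had 6 of 93 higher (6.45%) and 5 lower (5.38%). Higher ones were mostly ligands and receptors, such as Il23a with 411 in mutant and 21.7 in control oocytes, the interleukin-1 coreceptor Il1rap with 230 in mutant and 21.1 in control oocytes, the chemokine Cxcl14 with 218 in mutant and 50.7 in control oocytes, and Il18r1 with 210 in mutant and 39.3 in control oocytes. Lower ones included the NF-kappaB subunit Nfkb1, with 19.4 in mutant and 229 in control oocytes, its inhibitor Nfkbia, with 6.94 in mutant and 53.6 in control oocytes, and the receptor Il2rb.

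Developmental transcription factors were the transcription class with the largest share of lower genes. Of 88 genes of the homeobox, Sox, Fox, Gata, T-box, Klf, Ets and nuclear receptor families and the like, 10 were lower (11.4%) and 5 higher (5.68%), and the median log2 ratio was -0.54. The lower ones with the largest control means were Nr5a2, Lef1, Pax2 and Runx2, the last a factor of bone with 7.09 in mutant and 200 in control oocytes. Klf4, one of the reprogramming factors, was at 0.309 in mutant and 108 in control oocytes. Lef1 and Tcf7l2 were also counted among the lower Wnt genes, and Hey2 among the lower Notch and Hedgehog genes. The lower shares of these classes therefore rest partly on the same genes. Among the higher ones were Sox6 with 706 in mutant and 47.7 in control oocytes, Tbx5, a factor of heart and forelimb, with 126 in mutant and 3.21 in control oocytes, and the epithelial factor Elf3 with 105 in mutant and 15.2 in control oocytes.

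The zinc finger genes with a Zfp symbol, many of which encode repressors of the KRAB type, had 15 of 247 higher (6.07%) and 10 lower (4.05%). Zfp260 had 951 in mutant and 155 in control oocytes and Zfp532 164 in mutant and 1015 in control oocytes. Zfp423, a factor of neural and fat cell precursors, was at 2.47 in mutant and 111 in control oocytes. By contrast RNA polymerases, general factors and Mediator had 1 of 112 higher and 2 lower, and a median of 0.02.

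Among genes of chromatin, the known partners of KDM1A were mostly within the 4-fold bound. Of 19 tested, Kdm1a included, 0 were higher and 2 lower. The second lower gene was Insm1, a zinc finger repressor of neuroendocrine cells that binds KDM1A, with 20.6 in mutant and 374 in control oocytes, a log2 ratio of -4.11. Zmym3, a zinc finger protein of CoREST complexes, lay just outside the bound, at 41.8 in mutant and 170 in control oocytes. The corepressors Rcor1 (564 in mutant and 602 in control oocytes) and Rcor2 (126 in mutant and 152 in control oocytes) were nearly equal.

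The deacetylases of the complex had log2 ratios above 0, Hdac1 with 67.3 in mutant and 19.98 in control oocytes and Hdac2 with 2725 in mutant and 1447 in control oocytes. Phf21a, the subunit that binds unmethylated lysine 4, had 317 in mutant and 97.5 in control oocytes. Rest, the repressor that brings CoREST to neuronal genes, had 2055 in mutant and 3704 in control oocytes. Kdm1b, the related demethylase that oocytes need to set maternal imprints, had 540 in mutant and 1194 in control oocytes, a log2 ratio of -1.14. Other partners were Mier1 (0.91), Zfp217 (0.87), Mta3 (0.35), Mta1 (-0.24), Hmg20b (-0.30), Gse1 (-0.69), Zmym2 (-0.83) and Rreb1 (-1.18), each with its log2 ratio.

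Enzymes that add or remove methyl groups on lysines had a median log2 ratio of -0.61 over 61 rows, of which 13 were above 0. Of these rows 4 were higher and 2 lower. Kdm5b, a demethylase of trimethylated lysine 4, had 217 in mutant and 22.02 in control oocytes. Prdm9, the methyltransferase that places meiotic recombination sites, had 74.4 in mutant and 3.29 in control oocytes. Mll5 and Kmt2e are rows of the same gene under its older and newer symbol, with log2 ratios of 2.03 and 2.01. Lower were Prdm16, at 26.5 in mutant and 220 in control oocytes, and Smyd4, at 11.5 in mutant and 90.8 in control oocytes.

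Polycomb genes had a median of -0.54 over 31 rows, with 1 higher, L3mbtl3 at 293 in mutant and 28.6 in control oocytes, and 0 lower. Genes of DNA methylation and its removal had 2 of 23 higher and 0 lower, and a median of 0.03. Tet1, which oxidizes methylcytosine, had 388 in mutant and 82.8 in control oocytes, and Mbd1, which binds methylated CpG, 340 in mutant and 40.9 in control oocytes. Genes of histone acetylation had 0 of 41 in either direction, beside 3.93% higher and 2.60% lower of all tested genes. Replication-dependent histone genes, which the poly-dT primer reaches poorly because their messages lack a poly(A) tail, had a median of 0.58 over 28 rows, with 1 higher, Hist1h4d, at 681 in mutant and 117 in control oocytes.

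Genes that encode the ribosome and the respiratory chain lay above equality as groups by less than the 4-fold bound. Of 70 cytosolic ribosomal protein genes 56 had a log2 ratio above 0 and the median was 0.79, against -0.01 for all genes. Of them 7 were higher (10%) and 0 lower, among them Rps2 with 212 in mutant and 32.0 in control oocytes, Rpl34 with 150 in mutant and 23.4 in control oocytes, Rpl26 with 84.7 in mutant and 18.2 in control oocytes and Rps29 with 83.9 in mutant and 14.7 in control oocytes. These genes have many processed copies in the genome, and reads that matched several loci were weighted down, so their values are uncertain.

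The nuclear genes of oxidative phosphorylation had a median of 0.71, with 75 of 96 above 0, 4 higher and 0 lower. Ndufa9, of complex I, had 1019 in mutant and 134 in control oocytes, Cox6c, of cytochrome c oxidase, 382 in mutant and 67.8 in control oocytes, and Ndufs8, of complex I, 77.7 in mutant and 13.5 in control oocytes. The 15 tested rows of the mitochondrial genome lay on the other side, all below 0, with a median of -2.49. They varied widely, from -3.26 for Atpase6 to -0.28 for mt-Rnr1, and 7 were called lower. The row of mt-Rnr1 was the most abundant, at 41435 in mutant and 50145 in control oocytes. Mitochondrial ribosomal proteins had a median of 0.43 over 67 rows, with 4 higher, such as Mrps36 at 484 in mutant and 81.5 in control oocytes, and 1 lower, Mrps18a at 31.5 in mutant and 218 in control oocytes. Proteasome subunits had a median of 0.43 over 39 rows, with 1 higher, Psmb5, and 0 lower.

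These are short genes, and short genes as a whole had larger ratios. The median log2 ratio was 0.46 in the bin of shortest transcripts and -0.17 in that of the longest, of 10 equal bins (Spearman correlation across 11277 genes -0.189). When each ratio was centred within 10 bins of protein length, the median of the cytosolic ribosomal proteins was 0.52 with 4 higher, that of the nuclear oxidative phosphorylation genes 0.34 and that of the mitochondrial ribosomal proteins 0.22. The median became -0.48 for the lysine methylation enzymes and -0.42 for Polycomb genes, both nearer to 0, and -0.52 for Wnt genes, slightly farther from it. Base composition went with the ratio as well. In the bin of 10 with the highest GC content of the transcript the median was -0.33, and 4.26% of them were lower, against 1.68% in the bin with the lowest GC. Whether length and GC reflect the origin of the libraries or the genotype cannot be told apart.

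**Figure D4:**
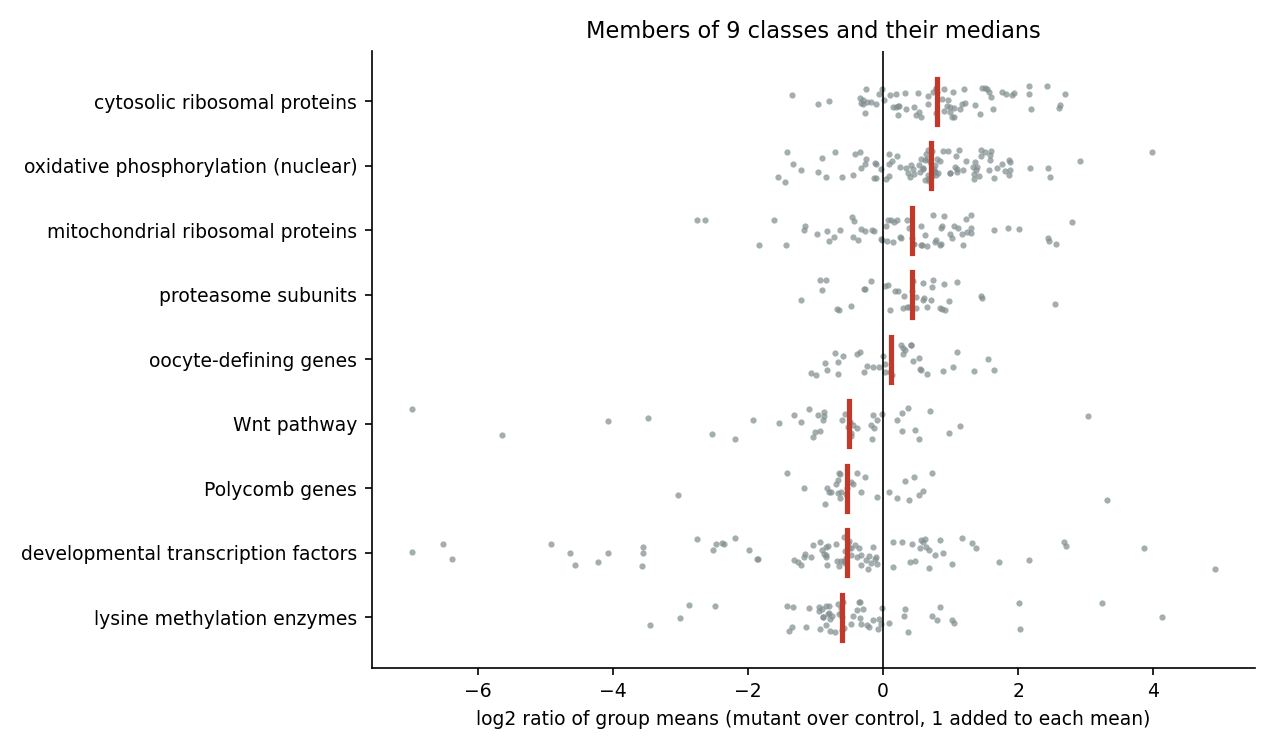
Log2 ratio of the group means (Kdm1a mutant over control, 1 added to each) of every tested member of 9 gene classes (grey points, spread vertically only for sight) with the class median as a red bar. The medians run from 0.79 for cytosolic ribosomal proteins to -0.61 for lysine methylation enzymes, while single members of the Wnt and developmental factor classes reach -6.98.

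**Figure D5:**
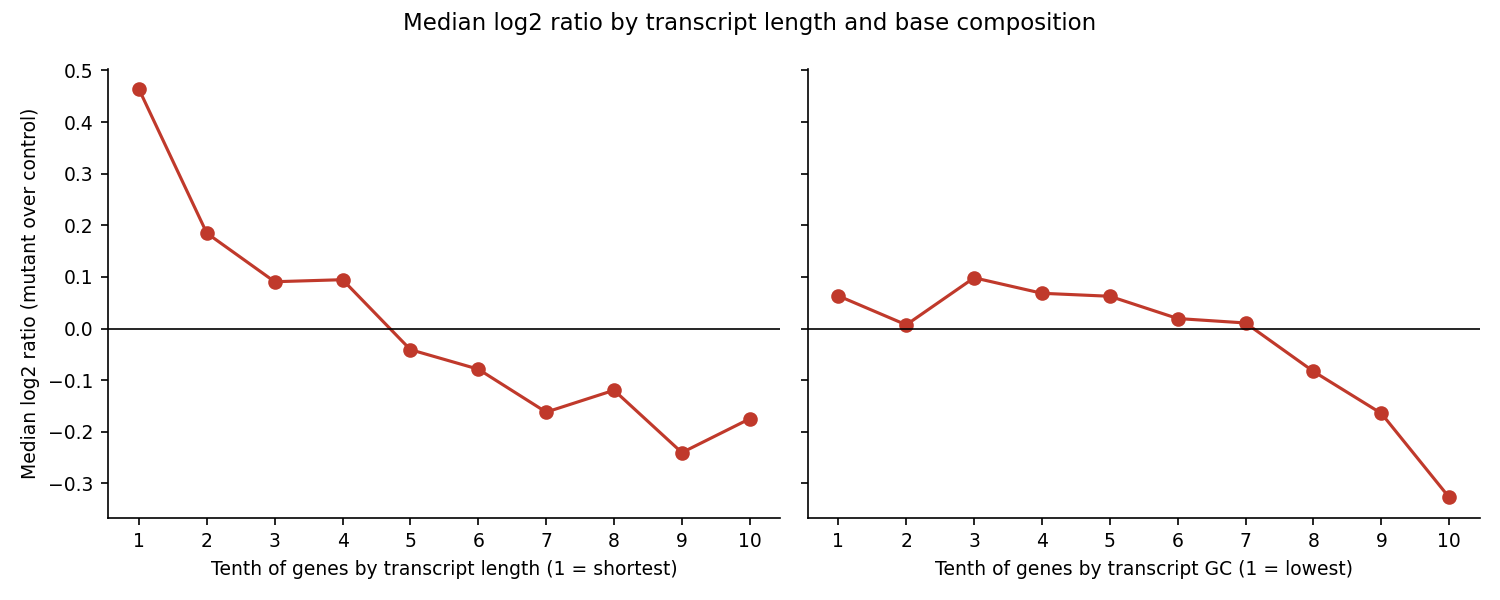
Median log2 ratio (Kdm1a mutant over control) in each of 10 equal bins of the tested genes, ordered by transcript length (left) and by GC content of the transcript (right). It goes down from 0.46 in the shortest to -0.17 in the longest transcripts, and reaches -0.33 in those with the highest GC.

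Genes that control stored messages are given by single members. Of 60 genes of storage and translation control 2 were higher (3.33%) and 4 lower (6.67%), beside 3.93% and 2.60% of all tested genes. Eif4ebp2, which holds the cap-binding factor EIF4E inactive, was at 3.08 in mutant and 150 in control oocytes, and Pabpn1l, a poly(A)-binding protein of oocytes, at 14.96 in mutant and 180 in control oocytes. Igf2bp3 had 187 in mutant and 772 in control oocytes and Msi2, a Musashi protein, 120 in mutant and 605 in control oocytes. Its relative Msi1 was higher, at 57.8 in mutant and 3.83 in control oocytes, as was Celf3, at 113 in mutant and 5.58 in control oocytes. In the small RNA pathway Henmt1, which methylates the ends of piRNAs, had 58.5 in mutant and 267 in control oocytes.

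Classes of division and genome upkeep are given beside the 3.93% higher and 2.60% lower of all tested genes. In the most abundant of 10 bins by mean level these shares were 0.26% and 0.52%. Small counts in classes of this size are close to such shares and are not read as a result. Genes of replication had 0 of 51 past the bound, kinetochore, spindle checkpoint and cohesin genes 1 of 77, Mad2l1bp, and splicing genes 1 higher and 1 lower of 114. DNA repair had 2 of 104 higher, one of them Xpa, of nucleotide excision repair, with 1264 in mutant and 98.7 in control oocytes. Cyclins and their kinases had 2 of 66 higher (3.03%), Ccng1 and the G1 cyclin Ccnd1, and 4 lower (6.06%). One of the lower genes was Cdc25c, a phosphatase that activates CDK1, just inside the bound at 16.4 in mutant and 68.8 in control oocytes.

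Of 27 genes of meiotic recombination and synapsis, a process completed before birth in oocytes, 2 were higher, Prdm9 and the helicase gene Hfm1, 0 were lower, and the median was 0.49. Microtubule genes had 7 of 135 higher and 1 lower, among them the kinesins Kif21a with 536 in mutant and 120 in control oocytes and Kif21b with 335 in mutant and 44.2 in control oocytes. Actin and myosin genes had 5 of 94 higher, such as the tropomyosin Tpm2 with 750 in mutant and 68.9 in control oocytes, and 3 lower, such as Coro2b with 116 in mutant and 1407 in control oocytes.

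Protein quality genes gave single cases more than shifts. Heat shock genes had 4 of 78 higher, of which Dnajc5g, a testis-type J protein, had 1905 in mutant and 169 in control oocytes and Hspb1, the small heat shock protein, 186 in mutant and 9.74 in control oocytes, and 3 lower, among them Hspa2. Ubiquitin genes had 7 of 306 higher and 9 lower, below the share of all genes for higher ones. Of 51 antioxidant genes 1 was higher, Gpx1, glutathione peroxidase 1, with 597 in mutant and 37.7 in control oocytes, and 1 lower, Gclc, the first enzyme of glutathione synthesis, with 29.96 in mutant and 122.9 in control oocytes.

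Among genes tied to early development 2 of 20 pluripotency genes were higher, Fbxo15 with 714 in mutant and 132 in control oocytes and Dppa4 with 615 in mutant and 73.6 in control oocytes, and 1 was lower, Klf4. Of 26 imprinted genes 2 were higher, Gab1 and Mcts2, and 0 lower. REST targets and neuron genes, a class linked by background to the CoREST complex, had 2 of 23 higher, Dpysl5 with 413 in mutant and 100 in control oocytes and the sodium channel Scn3a with 117 in mutant and 13.9 in control oocytes. The 1 lower gene of this class was Elavl3, a neuronal RNA-binding protein, with 126 in mutant and 1110 in control oocytes, and the median was 0.01. The 6 tested genes of the 2-cell stage had 0 calls, beside 3.93% higher and 2.60% lower of all tested genes. In so short a list 0 calls are close to those shares. Their log2 ratios ran from -0.88 for Zscan4d to 2.64 for Tcstv3. Tcstv3 had 39.8 in mutant and 5.57 in control oocytes and was not called because of the minimum mean of 50. Zfp809 had 52.3 in mutant and 12.5 in control oocytes, just outside the bound. Sp110, the most abundant, had 2869 in mutant and 3062 in control oocytes.

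Genes called higher or lower lay on all autosomes and the X chromosome. The share called higher ran from 2.05% on chromosome 12 to 5.19% on chromosome 1, and the share called lower from 1.25% on chromosome 14 to 4.0% on chromosome 10. Because a floxed allele can carry flanking DNA of its strain of origin, the surroundings of Kdm1a were read separately. The methods call the controls Kdm1a fl/fl and the design text wild type, so it is not known whether the groups differ in this flanking DNA. Within 5 Mb of Kdm1a 105 genes were tested, of which 2 were higher, Grhl3 and Lypla2, and 5 were lower with Kdm1a itself, among them Ece1, Zbtb17 and Rcc2. Of all tested genes 3.93% were higher and 2.60% lower, and no difference from these shares was tested. The median there was -0.14.

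Nearest neighbours were read among tested protein-coding genes, leaving out neighbours that overlap the gene. Of 348 higher genes with such a neighbour within 100 kb, the nearest was also higher for 24 (6.90%), against 3.89% of 8276 genes called neither. Of 210 lower genes the nearest neighbour was also lower for 8 (3.81%), against 2.28% of those called neither, and was higher for 9 (4.29%), against 3.89%. When genes called in the same direction were nearest to each other, as Cldn6 and Cldn9 were, the pair entered the count from both sides. The counts are therefore of genes and not of separate pairs, and the differences between these shares were not tested. Pairs that lie close together include Cldn6 and Cldn9 on chromosome 17, Dclre1b and Ap4b1 on chromosome 3, and Nox1 and Trmt2b on the X chromosome, each under 1 kb apart. Whether the counting used strand is not given in the sources used here, so reads of such neighbours may not be told apart.

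Genes just inside and just outside the bound show how narrow it is. Vgll1 (55.0 in mutant and 12.98 in control oocytes) was counted as higher and Zfp825 (66.8 in mutant and 15.996 in control oocytes) was not, at log2 ratios of 2.003 and 1.996. Hmbox1 (250 in mutant and 1004 in control oocytes) was counted as lower and Sap30l (53.6 in mutant and 217 in control oocytes) was not.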

How the data were processed

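RNA of ovulated oocytes was measured in 3 Kdm1a mutant libraries of the series and in control libraries of an earlier study, prepared with NuGEN Prelude lysis and Ovation RNA-seq V2 amplification in the mutant samples. The signal values in the deposited table are normalized counts that the authors made from the first read of each pair, aligned by BBMap to genes and annotated repeats of mm10, with reads of several loci weighted down by the square of their number, median normalized in R and averaged within each group. The authors left genes with few raw counts out of their test. Cufflinks and DESeq are named in the submitters' processing notes, without versions. The table also holds the authors' own fold changes and p-values, which were not used. Of columns with values per library 0 were left unused, and no depth per sample is known, so no interval is given.

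From the means, log2 ratios were recomputed with a pseudocount of 1, which understates differences of low genes. Genes were called past a 4-fold bound if the higher mean was at least 50. No test was run, since the table holds group means only. Named genes are the 15 with the largest and the 15 with the smallest ratio among genes whose higher mean was at least 200, with an established symbol found on a single row, in each class up to 4 members per direction with the largest means, and the partners of KDM1A, of which 1 is not reported here. Other named genes were chosen after their values were seen. The members, classes and lists were chosen with earlier results of these data known. Positions and transcripts are from GENCODE vM21 on GRCm38, of which 10595 tested rows matched by symbol and 682 through a synonym. The foreseen comparison of promoter windows was void, because RefSeq windows were matched for 73.1% of higher and 68.6% of lower genes. Alternatives were other pseudocounts, bounds and minimum means, centring, equal sums, and rows left out. Python 3.11.15, numpy 2.4.6, pandas 2.3.3, scipy 1.17.1 and matplotlib 3.10.9 were used.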

Additional observations from a re-analysis of the deposited data

How the results depend on the processing

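At a 2-fold bound 1336 genes were higher and 1100 lower in Kdm1a mutant oocytes, at an 8-fold bound 190 and 109, and with a minimum mean of 200 in place of 50 they were 170 and 121, while with no minimum mean 540 were lower. With a pseudocount of 10 or 0.5, with ratios centred, with equal sums, without symbols on several rows, without the mitochondrial genome or within bins of protein length, both counts stayed within 1.5 times the reported ones, and with equal sums 65.0% of calls were higher, against 60.2%. Of 63 recomputed class medians 57 moved little, 6 moved and 0 changed sign. A pseudocount of 10 gave 0.67 for cytosolic ribosomal proteins, and the other 5 were the medians within bins of protein length given above. No paired analysis was possible because the table holds group means, and for the same reason no library could be left out. What limits every value is that the spread between libraries and their depth are unknown.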

Other observations

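Outside the classes described, tested rows of 175 long intergenic RNA genes had 10 higher and 5 lower in Kdm1a mutant oocytes, and 484 processed pseudogenes had 3 higher (0.620%) and 4 lower (0.826%), fewer than all genes. Of 910 rows with a Gm number 19 were higher and 17 lower, and of 530 RIKEN clones 24 were higher and 11 lower. The most abundant of them past the bound was Gm15698, with 30374 in mutant and 7246 in control oocytes, chosen after its values were seen. Among the rows left untested, 130 reached a mean of 50 in at least 1 group.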
